A study of Mus musculus with 6 samples.

Results

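The comparison described here is between mouse embryonic stem cells exposed to cycloheximide for 3 h and cells given only its ethanol vehicle, and it takes in every gene that passed a filter on low counts. It uses 4 of the 6 libraries of the series, 2 per group, and 12755 genes out of 17484 rows with a gene and a chromosome. All cells were E14, an embryonic stem cell line of 129/Ola background, grown on gelatin in medium with serum and leukemia inhibitory factor (LIF), and all groups share that genotype and medium. Treatment began 24 h after seeding, with cycloheximide at 250 µg/mL in 0.007% ethanol. The controls received ethanol alone for 9 h, so the vehicle time was longer than either drug time and an untreated culture is not among the groups. The other group of the series received the same dose for 6 h and is used here to share the estimate of spread and, at the end, to set the 3 h changes beside those at 6 h. The series is titled as bulk sequencing although its design text speaks of single cells, and the files hold 1 column of counts per sample. The labels call the RNA polyadenylated and do not say whether libraries of a group came from separate cultures, so p-values measure the spread between these samples, which may be technical.

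Cycloheximide blocks the translocation step of elongating ribosomes in the cytosol, so new protein stops being made while transcription goes on. Proteins with short lives, among them inhibitors of signalling and of transcription, then decline, and mRNAs whose decay depends on being translated or on a labile decay factor can accumulate. The textbook case is the superinduction of immediate-early genes, the fast transcriptional targets of growth factor signalling. Mitochondrial ribosomes are not blocked by the drug. In embryonic stem cells, LIF signalling through STAT3, BMP signalling through the Id genes and ERK signalling bear on the choice between self-renewal and differentiation.

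The 4 libraries held between 9385447 and 16760303 counts. Mitochondrially encoded transcripts made up 24.7% and 24.9% of the counts in the controls and 19.6% and 18.9% at 3 h (exact permutation test, two-sided p = 0.333, the smallest that 2 against 2 libraries allow). Levels below are in CPM, the usual depth-scaled count unit, scaled between libraries by the trimmed mean of M values (TMM), and they compare libraries, not genes, since they are not set per length. The summed level of 37 pluripotency genes was 12639 and 12673 CPM in the controls and 13763 and 14434 CPM at 3 h, which goes with the stem cell label. Sox2 was a large part of this sum, with 2282 and 2602 CPM in the controls and 3849 and 3958 CPM at 3 h. Of the markers of other cell types, none of the tested genes passed the test at 3 h: 15 of primitive endoderm, 8 of trophoblast, 9 of neural cells, 9 of mesoderm and 10 of fibroblasts. In these lists, in that order, 3, 4, 3, 2 and 1 genes had an unadjusted p below 0.05, DESeq2 called 2, 2, 2, 0 and 0, and limma-voom 0, 0, 0, 0 and 0, with genes in more than 1 list counted in each. The summed level of the primitive endoderm markers was between 578 and 590.1 CPM in the controls and between 483 and 487 CPM at 3 h, most of it from Sparc, a matrix glycoprotein (447 and 464 CPM in the controls and 367 and 357 CPM at 3 h). The neural markers summed to 344 to 356 CPM and 302 to 340.1 CPM, most of it from the tubulin gene Tubb3 (262 and 267 CPM in the controls and 189.8 and 208 CPM at 3 h), and the fibroblast markers summed to at most 36.4 CPM in any of the 4 libraries. In bulk RNA, fewer cells of a type and less RNA per cell cannot be told apart.

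At 3 h, 459 genes were higher and 166 lower than in the controls at a Benjamini-Hochberg adjusted p below 0.05 in edgeR's quasi-likelihood test, which is 3.6% and 1.3% of the tested genes and 4.9% together. These shares are the background for every gene group below, and "called" means past this threshold. They are not matched for level, and lower calls were more frequent among abundant genes, with 62 of 1554 from 100 to 1000 CPM. Lists of abundant genes can thus exceed the lower share through level alone. Of the lists, only the Zfp zinc finger genes were compared at like level. The higher calls were also the larger ones: 294 of them were at least 2-fold up, while 34 of the lower calls were at least 2-fold down. The direction depended on level. Genes averaging under 5 CPM had a median log2 fold change of 0.29, those from 20 to 100 CPM -0.02 and the 119 genes at 1000 CPM or more -0.33, and among that last set 23 were called lower and 2 higher. All 12755 genes had a median of 0.02 with TMM, and of 0.25 when libraries were scaled by their totals alone, where 95.8% of 1373 calls were higher against 73.4% with TMM. Changes below are on the TMM scale.

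**Figure D1:**
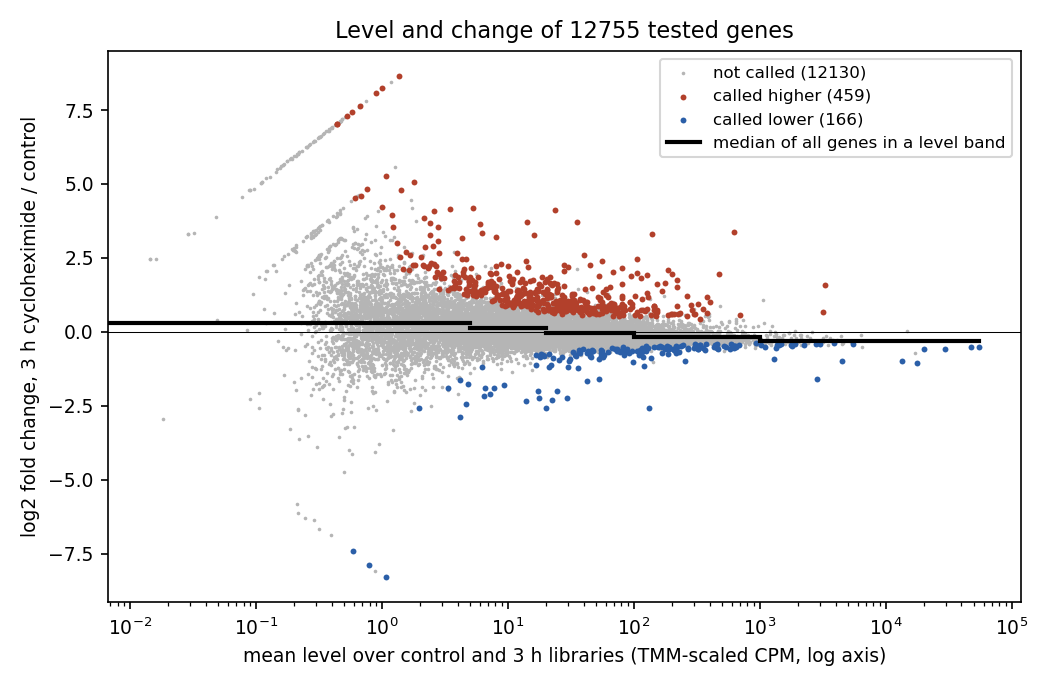
Each point is a tested gene, with its mean level over the 2 control and 2 cycloheximide 3 h libraries on the x axis (TMM-scaled CPM, log axis) and its log2 fold change on the y axis; the 459 red genes were called higher and the 166 blue genes lower. Black lines are medians of all genes in 5 bands of level and step down from 0.29 to -0.33, and the blue points gather at high levels with small changes.

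The number of calls rested on having both 3 h libraries. Without 3 h library 1, 93 genes were called higher and 15 lower, and without 3 h library 2, 98 and 13; the lone library was then assumed to vary like the other groups. Without control library 1 the counts were 744 and 289, and without control library 2 they were 388 and 88. Fitting the 4 libraries by themselves, with no help from the 6 h libraries, gave 168 and 50. For the named genes, all 103 calls kept their direction in each of 14 alternative analyses (13 for mtNd1, mtNd2 and mtNd4l, which are absent from the fit without mitochondrial genes) and 40 of them stayed past the threshold in each. At the edge of the plot, 93 genes had no count in either control, of which 8 were called higher, and 19 had none in either 3 h library, of which 3 were called lower; their fitted fold changes depend on the prior count.

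**Figure D2:**
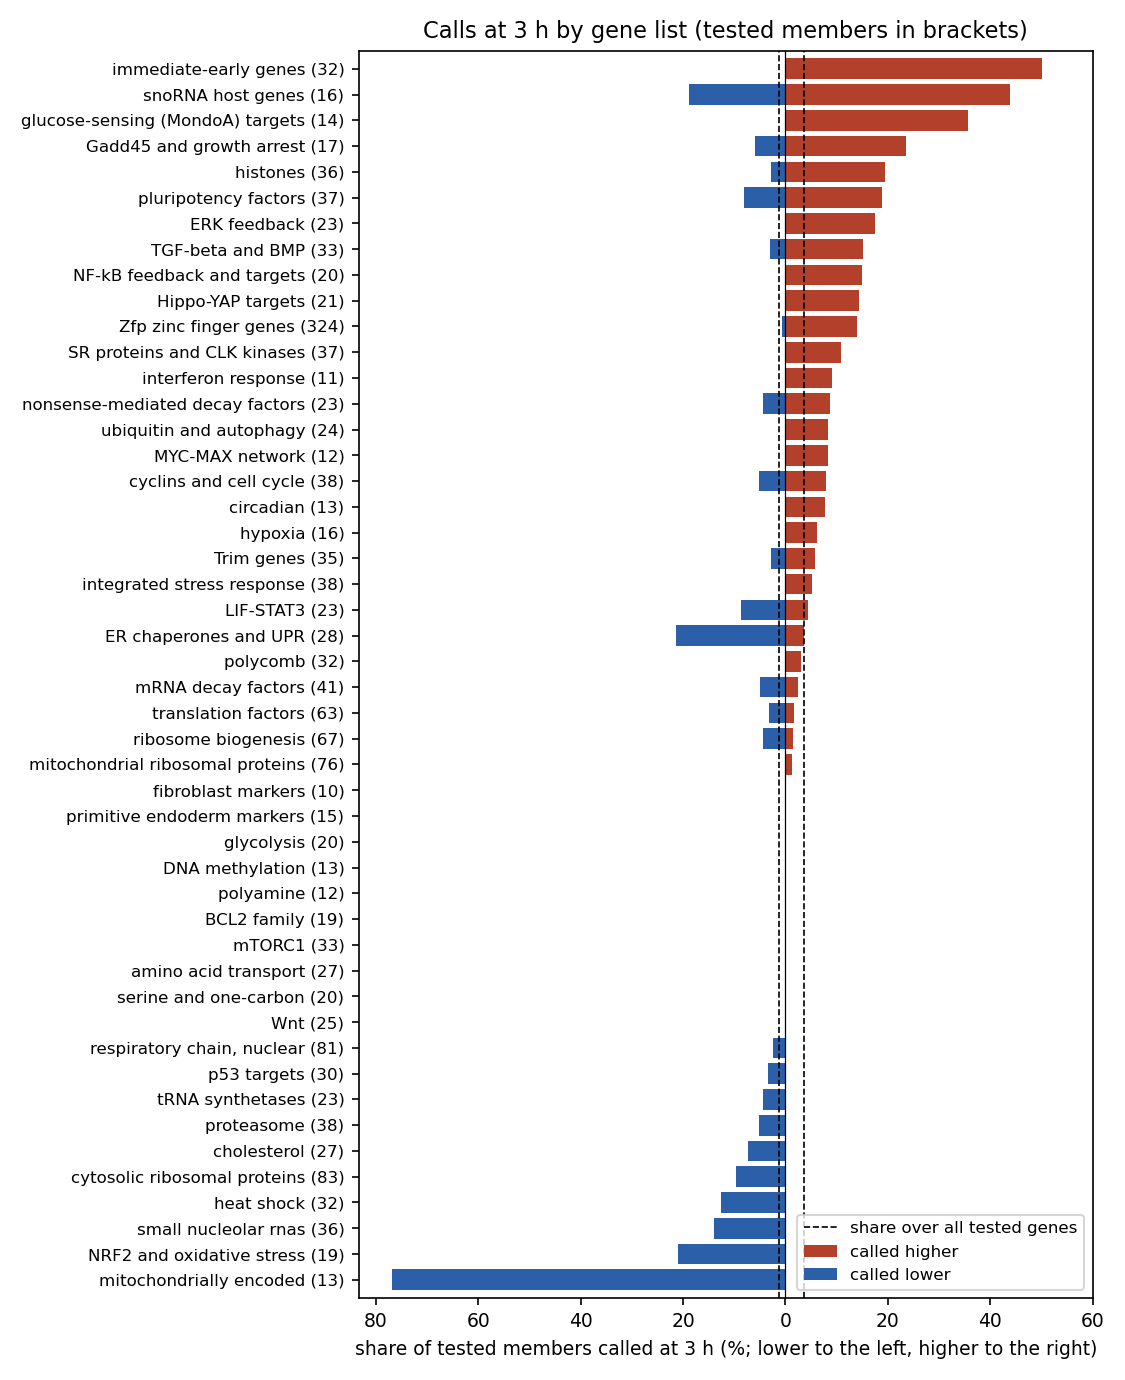
Bars give the share of tested members of each gene list called higher (right) or lower (left) at 3 h, with the number of tested members in brackets; dashed lines mark the shares over all 12755 tested genes, 3.6% and 1.3%. Immediate-early genes reach 50% on the higher side and mitochondrially encoded genes 76.9% on the lower side, while several lists have no bar because none of their members was called.

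Some features of the transcripts were unevenly shared between called genes and the rest, and they are described here with no test. An AU-rich element is a stretch in the 3′ untranslated region (UTR) of many short-lived mRNAs, and its nonamer TTATTTATT was searched on the sense strand of 1 representative GENCODE transcript per protein-coding gene. It was present in 55 of 396 genes called higher (13.9%), in 7 of 141 called lower (4.96%) and in 7.56% of all 11566 tested protein-coding genes. Among genes from 5 to 20 CPM it was present in 11.6% of those called higher and 8.27% of those not called, and from 20 to 100 CPM in 18.8% of those called higher and 7.66% of those not called. From 100 to 1000 CPM the share among those called higher was 4.26% (2 of 47 genes) against 5.37%, so the difference was not seen in that band. Genes called lower held it in 2 of 7, 2 of 49 and 2 of 58 in these bands, in that order. These counts are too small to compare the lower set at like level. The median 3′ UTR was 1236 bases in genes called higher and 1011 in all tested, which gives a longer window to hold a match. The sites below belong to some of the regulators described next and are shown because they carry the nonamer, in capitals, with 8 bases on each side (mm10).
Fos: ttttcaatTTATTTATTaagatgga
Dusp1: gctggtccTTATTTATTtaacaccc
Dusp8: tcgattttTTATTTATTtaagctag
Nfkbia: accacgttTTATTTATTgtgctttt
The Fos site is at chr12:85477105-85477129, plus strand, and those of Dusp1 at chr17:26506161-26506185, minus strand, Dusp8 at chr7:142081717-142081741, minus strand, and Nfkbia at chr12:55489610-55489634, minus strand. All 4 lie in the 3′ UTR. Dusp1 holds 2 such nonamers, of which the first is shown, and the other 3 genes hold 1 each. A match is a description of the letters and not evidence that the site is used.

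Genes called at 3 h were also built from fewer exons. Protein-coding genes called higher had a median of 5 exons and those called lower 6, against 9 over all tested. Single-exon genes were 9.34% of those called higher, 8.51% of those called lower and 2.43% of all tested. The share in the lower set came mostly from the mitochondrial chromosome, whose genes have no introns: without it, 2 of 131 genes called lower had a single exon (1.53%, against 2.32% of all tested), their median was 7 exons and their median 3′ UTR 1188 bases. The median gene span was 16.5 kb in the higher set, 14.98 kb in the lower set and 23.7 kb overall. Fewer exons were seen among genes called higher in each of 3 level bands, with medians of 5, 6 and 7 exons from 5 to 1000 CPM beside 9, 10 and 9 in genes not called. These are descriptions of annotated transcripts, of which 94.1% of genes called higher and 91.6% of those called lower could be matched.

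**Figure D3:**
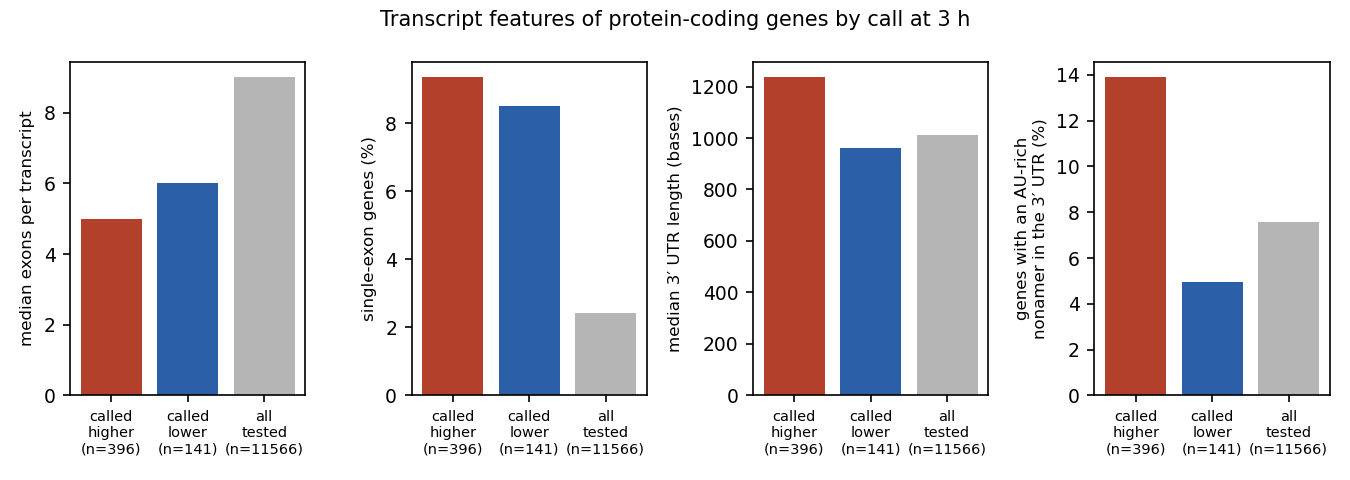
Bars give, for the 396 protein-coding genes called higher, the 141 called lower and all 11566 tested, the median number of exons, the share with a single exon, the median 3′ UTR length in bases and the share with an AU-rich nonamer. The higher set has 5 exons against 9 over all tested and the nonamer in 13.9% against 7.56%, while the lower set, which includes 10 mitochondrial genes without introns, has 6 exons and the nonamer in 4.96%.

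Immediate-early genes had the largest share of higher calls among the lists with at least 10 tested members: 16 of 32 tested members were called higher and 0 lower, with a median log2 fold change of 1.14, beside 0.02 over all tested genes. Egr1, a zinc finger transcription factor, stood at 2.001 and 3.42 CPM in the controls and 45.3 and 44.5 CPM at 3 h (log2 fold change 4.10, SE 0.27, adjusted p = 0.000176). Jun, a subunit of the AP-1 transcription factor, stood at 25.9 and 25.9 CPM in the controls and 214 and 293 CPM at 3 h (log2 fold change 3.29, SE 0.17, adjusted p = 4.54e-05), and Fos, its partner, which was singled out after its values were seen, at 1.19 and 2.08 CPM in the controls and 14.7 and 14.3 CPM at 3 h (log2 fold change 3.21, SE 0.35, adjusted p = 0.0024). In all 3, both treated libraries lay above both controls with no overlap. Klf10, a Krüppel-like repressor, had 105 and 97.4 CPM in the controls and 347 and 336 CPM at 3 h (log2 fold change 1.75, SE 0.10, adjusted p = 8.85e-05). The other members called higher were Klf6, Junb, Ier2, Rhob, Klf4, Csrnp1, Atf3, Klf2, Gadd45b, Mafk, Ctgf and Cyr61, the last 2 being also targets of YAP and described below. Over the alternatives 10 to 21 members of the list were called higher and at most 1 lower. Each of the 4 calls given with values held with any 1 of the 4 libraries left out.

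Feedback inhibitors of these signals were among the higher calls. Of the ERK feedback list 4 of 23 tested members were called higher and 0 lower, with a median log2 fold change of 0.29. The dual-specificity phosphatases inactivate MAP kinases: Dusp1 had 15.6 and 18.3 CPM in the controls and 36.8 and 33.6 CPM at 3 h (log2 fold change 1.06, SE 0.16, adjusted p = 0.0108). Dusp6, which acts on ERK, had 88.2 and 89.2 CPM in the controls and 135 and 163 CPM at 3 h (log2 fold change 0.75, SE 0.13, adjusted p = 0.0178). Dusp8, which acts on JNK and p38, was near the limit of detection in the controls, with 9 and 3 counts, and had 154 and 177 counts at 3 h (0.667 and 0.367 CPM in the controls and 9.95 and 10.2 CPM at 3 h; log2 fold change 4.19, SE 0.34, adjusted p = 0.00043). The treated and control libraries of the 3 phosphatases did not overlap. Phlda1 was the other member called. Other genes of the list, such as the Sprouty and Spred inhibitors, were tested and not called. Without either 3 h library the call was lost for Dusp1 and Dusp6 (adjusted p from 0.0555 to 0.143).

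Targets of NF-kB that restrain it were among the called genes. Of 20 tested members 3 were higher and 0 lower, with a list median of 0.67. Nfkbia encodes IκBα, the inhibitor that holds NF-kB in the cytosol and is itself a labile protein, and it had 36.6 and 26.3 CPM in the controls and 70.7 and 73.5 CPM at 3 h (log2 fold change 1.19, SE 0.17, adjusted p = 0.00947). Tnfaip3 encodes A20, a ubiquitin-editing inhibitor of the pathway, with 6 and 2 counts in the controls and 84 and 137 at 3 h (log2 fold change 4.17, SE 0.51, adjusted p = 0.00422). Icam1, an adhesion molecule and classic NF-kB target, had 60.98 and 63.9 CPM in the controls and 140.0 and 146 CPM at 3 h (log2 fold change 1.196, SE 0.11, adjusted p = 0.00102). In all 3 genes the groups were apart. The interferon regulator Irf1, which NF-kB also drives, had 12.004 and 10.3 CPM in the controls and 22.1 and 23.5 CPM at 3 h (log2 fold change 1.03, SE 0.18, adjusted p = 0.0193) and was the only call among 11 tested interferon genes. Leaving out either 3 h library ended the call of Nfkbia and Irf1 (adjusted p from 0.0655 to 0.127). Calls were also lost with fitting the 4 libraries by themselves (for Irf1) and limma-voom (for Tnfaip3).

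Among the genes of LIF and BMP signalling, Socs3 and the Id genes Id2, Id3 and Id4 were called higher. Socs3, which inhibits the LIF receptor and its kinases, had 92.9 and 94.3 CPM in the controls and 245 and 239.7 CPM at 3 h (log2 fold change 1.37, SE 0.11, adjusted p = 0.0004). The Id genes encode inhibitors of basic helix-loop-helix factors and are direct BMP targets. Id3 had 32.8 and 33.5 CPM in the controls and 181 and 181 CPM at 3 h (log2 fold change 2.45, SE 0.12, adjusted p = 4.54e-05). Id2 had 36.2 and 44.1 CPM in the controls and 119 and 125 CPM at 3 h (log2 fold change 1.61, SE 0.14, adjusted p = 0.000517). Id4 had 15.6 and 11.1 CPM in the controls and 38.1 and 34.2 CPM at 3 h (log2 fold change 1.42, SE 0.19, adjusted p = 0.0062). For these 4 genes both treated libraries exceeded both controls. The ligand Bmp4 went the other way, with 422 and 463 CPM in the controls and 271 and 304 CPM at 3 h (log2 fold change -0.62, SE 0.11, adjusted p = 0.0224). In the TGF-beta and BMP list, which does not hold Socs3, 5 of 33 tested members were called higher and 1 lower. The median log2 fold change of that list was 0.16, and its other 2 higher calls were the ligand Nodal and the activin antagonist Fst. None of 25 tested Wnt genes was called by edgeR; 4 had an unadjusted p below 0.05, and DESeq2 called 1 and limma-voom 0. The call of Id4 and Bmp4 was lost without 3 h library 1 (adjusted p from 0.0573 to 0.155). For Bmp4 the call was lost when 3 h library 2 or control library 2 was left out (adjusted p from 0.0565 to 0.0944). A call ended too with scaling to library size alone (for Bmp4).

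The Socs3 promoter is shown because it holds a match to the STAT motif TTCNNNGAA, in capitals, and because Socs3 was the member of the LIF-STAT3 list that rose. The window is RefSeq's (GRCm38.p6; chr11:117969317-117969616, minus strand), from 250 bases before to 50 after the annotated start, written 5′ to 3′ on the gene's strand.
Socs3: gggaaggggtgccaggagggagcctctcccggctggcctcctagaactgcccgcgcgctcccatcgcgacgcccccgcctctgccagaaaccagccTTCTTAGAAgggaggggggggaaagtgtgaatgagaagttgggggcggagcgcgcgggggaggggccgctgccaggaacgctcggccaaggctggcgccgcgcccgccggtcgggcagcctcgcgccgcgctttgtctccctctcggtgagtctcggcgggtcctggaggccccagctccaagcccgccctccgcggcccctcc
The match begins at base 97 of the window, counted from 1 at the 5′ end, and the motif reads the same on both strands. It was present in 3 of the 20 promoters found for the 23 tested LIF-STAT3 genes, in 6.68% of the promoters of tested genes and in 8.47% of all 27026 promoters. Promoters were found for 74.2% of the tested genes. Among those found, the motif was present in 22 of 350 genes called higher (6.29%) and 4 of 116 called lower (3.45%). Neither share was above that of the tested genes.

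Of the Hippo-YAP list 3 of 21 tested members were called higher and 0 lower. The list median was 0.04, beside 0.02 over all tested genes, with 12 members positive and 9 negative. Ctgf and Cyr61 encode secreted matricellular proteins and are standard readouts of the coactivator YAP, though serum and AP-1 also induce them. Ctgf had 10.2 and 9.29 CPM in the controls and 45.3 and 47.4 CPM at 3 h (log2 fold change 2.25, SE 0.15, adjusted p = 0.000187). Cyr61 had 7.63 and 11.2 CPM in the controls and 32.04 and 35.5 CPM at 3 h (log2 fold change 1.86, SE 0.22, adjusted p = 0.00323). Amotl2, an angiomotin that binds and restrains YAP, had 133 and 189 CPM in the controls and 362 and 374 CPM at 3 h (log2 fold change 1.19, SE 0.17, adjusted p = 0.00925). The groups did not overlap in any of the 3. Dropping either 3 h library took the call from Amotl2 (adjusted p from 0.0667 to 0.0694).

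**Figure D4:**
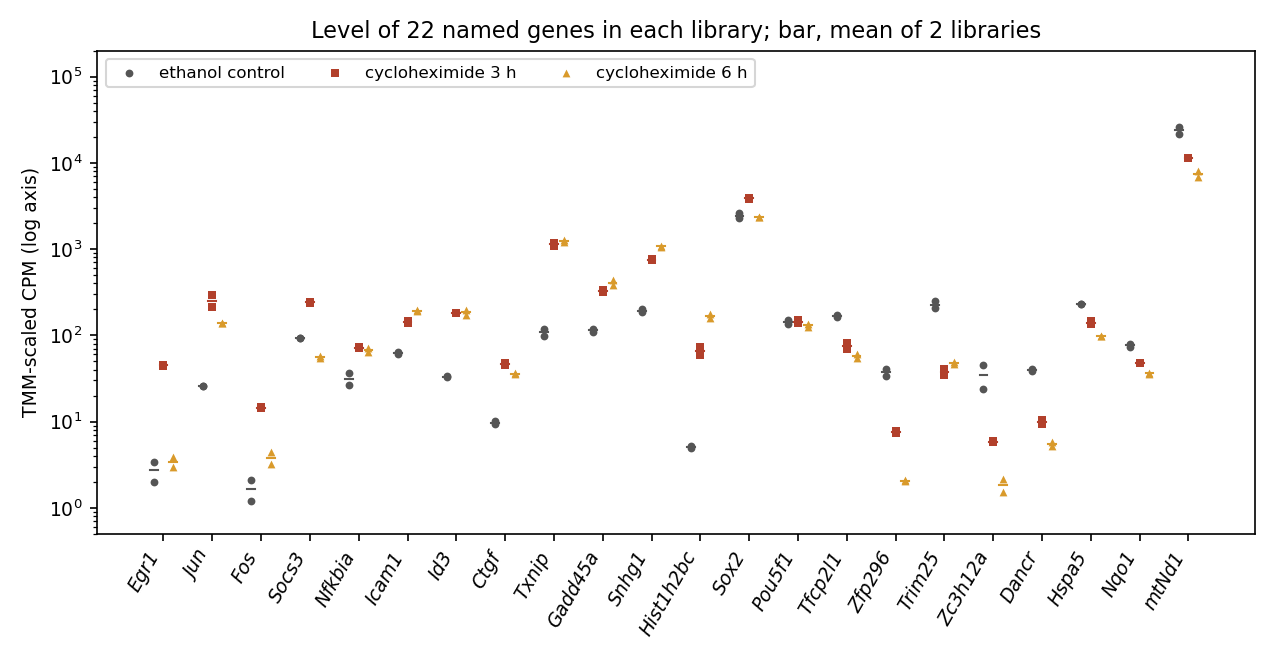
Points are single libraries of 22 named genes, control in grey, 3 h in red and 6 h in yellow, on a log axis of TMM-scaled CPM, and bars are means of 2 libraries. Egr1, Fos and Socs3 are high at 3 h and lower at 6 h, when Fos is still above both controls and Socs3 is below both. Hist1h2bc and Snhg1 are higher at 6 h than at 3 h, Pou5f1 stays between 125 and 153 CPM and Zfp296 falls at each step.

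Some glucose-sensing and growth arrest genes were called higher. The list of targets of MondoA and ChREBP, transcription factors that respond to glucose metabolites, had 5 of 14 tested members higher and 0 lower. Its leading member Txnip, an arrestin-like protein that limits glucose uptake, had 97.9 and 119 CPM in the controls and 1098 and 1167 CPM at 3 h (log2 fold change 3.39, SE 0.13, adjusted p = 1.68e-05). Its relative Arrdc3 had 17.5 and 18.2 CPM in the controls and 89.5 and 97.3 CPM at 3 h (log2 fold change 2.39, SE 0.13, adjusted p = 7.76e-05). Arrdc4, Pfkfb3 and Klf10 made up the rest. Of the growth arrest list 4 of 17 tested members were higher and 1 lower, with a median log2 fold change of 0.06; the higher ones were Cdkn2d, a cyclin-dependent kinase inhibitor, and all 3 Gadd45 genes, small proteins of growth arrest and stress kinase signalling. Gadd45a had 111 and 118 CPM in the controls and 339 and 319.8 CPM at 3 h (log2 fold change 1.53, SE 0.12, adjusted p = 0.000341). Gadd45g had 0.815 and 0.978 CPM in the controls and 11.3 and 10.9 CPM at 3 h (log2 fold change 3.64, SE 0.34, adjusted p = 0.000977). Gadd45b had 7.11 and 7.58 CPM in the controls and 19.6 and 12.6 CPM at 3 h (log2 fold change 1.13, SE 0.25, adjusted p = 0.0423). The antiproliferative gene Tob1 was lower, with 41.9 and 39.3 CPM in the controls and 21.7 and 20.97 CPM at 3 h (log2 fold change -0.93, SE 0.14, adjusted p = 0.0105). Without 3 h library 1 the call was lost for Gadd45b and Tob1 (adjusted p from 0.083 to 0.194). Leaving out 3 h library 2 ended the call of Tob1 (adjusted p = 0.0931). The call of Gadd45b was lost without either control library (adjusted p from 0.0745 to 0.0762). Calls lost under other settings included those with fitting the 4 libraries by themselves (for Gadd45b) and limma-voom (for Gadd45b).

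The p53 and amino acid stress programmes that share members with growth arrest gave few calls in the lists used. The p53 list does not hold Gadd45a and the integrated stress response list does not hold Atf3. Both genes were called higher and are counted above in other lists. Of 30 tested p53 targets 0 were higher and 1 lower, the latter being Ccng1 (189.5 and 186 CPM in the controls and 131 and 137 CPM at 3 h; log2 fold change -0.48, SE 0.11, adjusted p = 0.0433). Trp53 itself, which encodes p53, stood at 934 and 932 CPM in the controls and 927 and 810.5 CPM at 3 h (log2 fold change -0.10, SE 0.10, adjusted p = 0.569). In the integrated stress response list, built around the transcription factor ATF4, 2 of 38 tested members were called higher and 0 lower, with a median log2 fold change of -0.27. Both calls were transcription factors of the pathway: Atf4 had 302 and 295 CPM in the controls and 477 and 452 CPM at 3 h (log2 fold change 0.64, SE 0.10, adjusted p = 0.0107). Ddit3, which encodes CHOP, had 1.93 and 1.96 CPM in the controls and 4.84 and 6.41 CPM at 3 h (log2 fold change 1.54, SE 0.33, adjusted p = 0.0379). No member was called among 20 genes of serine and one-carbon metabolism or 27 of amino acid transport, many of them ATF4 targets, and their medians were -0.27 and -0.0048, the latter turning to 0.22 with library size alone. In these lists, in that order, 8 and 8 genes had an unadjusted p below 0.05, DESeq2 called 4 and 3, and limma-voom 0 and 0. The p53 list's median of -0.10 also changed sign on that scale, to 0.13. For Ccng1, Atf4 and Ddit3 the call was lost when either 3 h library was left out (adjusted p from 0.0694 to 0.208). Dropping either control library took the call from Ccng1 and Ddit3 (adjusted p from 0.0581 to 0.0781). Settings that also ended a call included scaling to library size alone (for Ccng1), fitting the 4 libraries by themselves (for Ccng1 and Ddit3) and limma-voom (for Ddit3).

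Pluripotency factors split in both directions. Of 37 tested, 7 were higher and 3 lower, with a median of 0.01. Sox2, a core factor, had 2282 and 2602 CPM in the controls and 3849 and 3958 CPM at 3 h (log2 fold change 0.68, SE 0.09, adjusted p = 0.00841). Klf4, a reprogramming factor, had 238 and 236 CPM in the controls and 347 and 380.3 CPM at 3 h (log2 fold change 0.62, SE 0.11, adjusted p = 0.0215). Zfp281, a zinc finger factor tied to exit from the naive state, had 189 and 179 CPM in the controls and 283 and 289 CPM at 3 h (log2 fold change 0.63, SE 0.12, adjusted p = 0.0238). Klf2, Tbx3 and Otx2 were also called higher. Pou5f1, which encodes the core factor OCT4, had 153 and 136 CPM in the controls and 149.6 and 139 CPM at 3 h and Nanog had 6.002 and 10.02 CPM in the controls and 4.07 and 8.84 CPM at 3 h. Neither was called (log2 fold change -0.00018, SE 0.12 and -0.29, SE 0.43), and the groups overlapped in both.

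The members that fell included Tfcp2l1, a naive-state factor downstream of LIF and STAT3, with 162 and 170.5 CPM in the controls and 80.6 and 69.1 CPM at 3 h (log2 fold change -1.15, SE 0.13, adjusted p = 0.00302). Zfp296, a zinc finger protein of stem and germ cells, fell further, with 40.3 and 34.1 CPM in the controls and 7.82 and 7.34 CPM at 3 h (log2 fold change -2.30, SE 0.19, adjusted p = 0.00043). Gbx2, another STAT3 target, had 217 and 233 CPM in the controls and 164 and 154 CPM at 3 h (log2 fold change -0.50, SE 0.12, adjusted p = 0.0484). Within the LIF-STAT3 list Socs3 was thus higher while Tfcp2l1 and Gbx2 were lower, out of 23 tested. Of the MYC network, Myc stood at 96.3 and 119.6 CPM in the controls and 93.02 and 112 CPM at 3 h (log2 fold change -0.07, SE 0.20, adjusted p = 0.856), with overlapping groups, and the antagonist Mga was higher, with 41.3 and 27.98 CPM in the controls and 79.3 and 68.6 CPM at 3 h (log2 fold change 1.08, SE 0.19, adjusted p = 0.0192). Without either 3 h library the call was lost for Sox2, Klf4, Zfp281, Gbx2 and Mga (adjusted p from 0.0625 to 0.245). Leaving out control library 2 ended the call of Zfp281 and Gbx2 (adjusted p from 0.061 to 0.119). Calls were also lost with scaling to library size alone (for Gbx2) and fitting the 4 libraries by themselves (for Gbx2 and Mga).

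Genes that host small nucleolar RNAs (snoRNAs) in their introns, most of them noncoding, were called in both directions. Spliced host transcripts often carry short reading frames, and several are textbook substrates of nonsense-mediated decay, which needs translation. Of the 16 tested genes of this list, which also holds the protein-coding host Taf1d and the microRNA host Mir17hg, 7 were higher and 3 lower. Snhg1 had 185 and 200.3 CPM in the controls and 761 and 740.5 CPM at 3 h (log2 fold change 1.96, SE 0.10, adjusted p = 4.54e-05). Snhg12 had 23.1 and 21.9 CPM in the controls and 78.9 and 89.3 CPM at 3 h (log2 fold change 1.90, SE 0.14, adjusted p = 0.000296). The uncharacterised host 1110038B12Rik had 75.9 and 70.99 CPM in the controls and 168 and 152 CPM at 3 h (log2 fold change 1.12, SE 0.11, adjusted p = 0.00176). Snhg5, Snhg6, Gas5 and Taf1d were the other hosts called higher. In contrast, Snhg4 had 53.1 and 44.8 CPM in the controls and 11.2 and 9.82 CPM at 3 h (log2 fold change -2.22, SE 0.18, adjusted p = 0.00037). Dancr had 38.2 and 40.8 CPM in the controls and 9.30 and 10.3 CPM at 3 h (log2 fold change -2.004, SE 0.17, adjusted p = 0.000618). Mir17hg, the host of the miR-17 cluster, had 61.7 and 67.1 CPM in the controls and 20.8 and 20.2 CPM at 3 h (log2 fold change -1.65, SE 0.16, adjusted p = 0.00107). In all 6 genes the treated libraries stood clear of the controls. Each of these calls held with any 1 of the 4 libraries left out.

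The snoRNAs themselves, which guide modification of ribosomal RNA and carry no poly(A) tail in their mature form, were lower where they were called. Of 36 tested, 0 were higher and 5 lower, and the median was -1.10. Snora44, which lies within Snhg12, had 28.8 and 18.1 CPM in the controls and 4.20 and 5.03 CPM at 3 h (log2 fold change -2.35, SE 0.36, adjusted p = 0.012), while Snhg12 itself was higher. Snora78 had 13.5 and 10.1 CPM in the controls and 1.81 and 3.64 CPM at 3 h (log2 fold change -2.11, SE 0.38, adjusted p = 0.0215). Snora74a had 10.97 and 10.02 CPM in the controls and 2.65 and 2.95 CPM at 3 h (log2 fold change -1.91, SE 0.36, adjusted p = 0.0248). How reads were divided between a snoRNA and its host, and whether strand was used, is not given in the sources used here, so values of such nested genes are uncertain. The call of Snora44, Snora78 and Snora74a was lost without 3 h library 1 (adjusted p from 0.103 to 0.144). For Snora44 and Snora74a the call was lost when 3 h library 2 was left out (adjusted p from 0.0844 to 0.138). Across annotated long noncoding RNAs as a class, 33 of 309 (10.7%) were called higher and 5 lower, against 3.42% higher among protein-coding genes. Neat1, the scaffold RNA of nuclear paraspeckles, was among the lower ones, with 56.5 and 44.4 CPM in the controls and 22.3 and 20.7 CPM at 3 h (log2 fold change -1.24, SE 0.17, adjusted p = 0.00841), and lost its call without 3 h library 1 or 2 (adjusted p = 0.0655 and 0.0797).

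Some regulators of splicing were higher, among them genes known to limit their own mRNA through unproductive splicing. The CLK kinases phosphorylate SR proteins: Clk2 had 49.4 and 48.9 CPM in the controls and 107 and 119.8 CPM at 3 h (log2 fold change 1.21, SE 0.13, adjusted p = 0.00195). Clk4 had 12.6 and 9.41 CPM in the controls and 31.7 and 35.7 CPM at 3 h (log2 fold change 1.60, SE 0.18, adjusted p = 0.00322). Clk1 had 73.4 and 71.2 CPM in the controls and 147 and 215 CPM at 3 h (log2 fold change 1.32, SE 0.22, adjusted p = 0.0169). With Rbm5 they made up the 4 higher calls among 37 tested splicing genes, of which 0 were lower. The SR protein genes of the list were not called. The list as a whole did not rise: its median was -0.04, with 16 members positive and 21 negative, and 0.19 with library size alone. Cyclins L, which partner with the kinases of splicing control, were higher as well, with 47.6 and 33.6 CPM in the controls and 169.6 and 131 CPM at 3 h for Ccnl1 (log2 fold change 1.88, SE 0.20, adjusted p = 0.00195) and 52.8 and 57.2 CPM in the controls and 93.8 and 91.1 CPM at 3 h for Ccnl2 (log2 fold change 0.75, SE 0.12, adjusted p = 0.0144). The groups did not overlap in these 5 genes. The gene tables sum over isoforms, so productive and unproductive transcripts cannot be told apart. Dropping 3 h library 1 took the call from Ccnl2 (adjusted p = 0.104). Without 3 h library 2 the call was lost for Clk1 and Ccnl2 (adjusted p from 0.0921 to 0.11).

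Genes of mRNA decay and translation gave a mixed picture. Among 23 tested factors of nonsense-mediated decay 2 were higher and 1 lower. Pnrc2, which links UPF1 to decapping, had 156 and 151 CPM in the controls and 272 and 296 CPM at 3 h (log2 fold change 0.89, SE 0.10, adjusted p = 0.00342). Of the exon junction complex, Casc3 had 27.7 and 25.9 CPM in the controls and 39.01 and 50.96 CPM at 3 h (log2 fold change 0.75, SE 0.17, adjusted p = 0.0446). Magoh had 175 and 188 CPM in the controls and 133 and 122.7 CPM at 3 h (log2 fold change -0.50, SE 0.11, adjusted p = 0.0418). Of 41 tested mRNA decay genes 1 was higher, again Pnrc2, and 2 were lower, Tob1 and Zc3h12a. The endoribonuclease Zc3h12a, also called Regnase-1, which degrades inflammatory mRNAs, had 45.3 and 23.6 CPM in the controls and 5.88 and 5.84 CPM at 3 h (log2 fold change -2.57, SE 0.32, adjusted p = 0.00491). Of 63 tested translation factors 1 was called higher and 2 lower. In that list 52 members had a negative change, with a median of -0.21, which was 0.01 with library size alone. The helicase Eif4a2 was higher, with 249 and 189.8 CPM in the controls and 454 and 399 CPM at 3 h (log2 fold change 0.96, SE 0.14, adjusted p = 0.0104). The initiation factor Eif1ax was lower, with 198 and 201 CPM in the controls and 147 and 130.1 CPM at 3 h (log2 fold change -0.53, SE 0.11, adjusted p = 0.0376), as was the termination factor Etf1, with 368 and 414 CPM in the controls and 290.0 and 282 CPM at 3 h (log2 fold change -0.45, SE 0.11, adjusted p = 0.0491). Leaving out either 3 h library ended the call of Casc3, Magoh, Zc3h12a, Eif4a2, Eif1ax and Etf1 (adjusted p from 0.0516 to 0.236). The call of Casc3 was lost without control library 1 (adjusted p = 0.056). For Casc3, Magoh, Eif1ax and Etf1 the call was lost when control library 2 was left out (adjusted p from 0.079 to 0.133). A call ended too with scaling to library size alone (for Magoh, Eif1ax and Etf1), fitting the 4 libraries by themselves (for Casc3, Magoh, Eif1ax and Etf1), limma-voom (for Casc3) and upper quartile scaling (for Etf1).

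Histone genes gave some of the largest changes. 7 of 36 tested were higher and 1 lower, with a median of 0.96. Hist1h2bc, an H2B gene, had 4.89 and 5.25 CPM in the controls and 59.4 and 72.7 CPM at 3 h (log2 fold change 3.71, SE 0.17, adjusted p = 4.54e-05). Hist3h2a, an H2A gene, had 2.22 and 1.71 CPM in the controls and 30.04 and 23.3 CPM at 3 h (log2 fold change 3.72, SE 0.23, adjusted p = 0.000117). The linker histone gene Hist1h1c had 3.56 and 2.32 CPM in the controls and 29.5 and 29.6 CPM at 3 h (log2 fold change 3.28, SE 0.23, adjusted p = 0.000206). Hist2h2be, Hist2h3c1, H1f0 and H2afx were the others called higher. The abundant variant gene H2afz was lower, with 2200.1 and 2153 CPM in the controls and 1688 and 1586 CPM at 3 h (log2 fold change -0.41, SE 0.09, adjusted p = 0.037). Replication-dependent histone mRNAs end in a stem-loop and not in a poly(A) tail, and the labels call the RNA polyadenylated, so the values are for whatever part of these transcripts entered the libraries. Near-identical histone genes can share reads, which makes the value of a single gene uncertain. Dropping either 3 h library or control library 2 took the call from H2afz (adjusted p from 0.0577 to 0.214). Calls lost under other settings included those with scaling to library size alone (for H2afz) and fitting the 4 libraries by themselves (for H2afz).

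The longest list was that of the zinc finger genes named Zfp, with 45 of 324 higher and 2 lower, with a median log2 fold change of 0.51. Many of them encode DNA-binding repressors, and they were compared with all other genes of like level. From 5 to 20 CPM, 20 of 129 Zfp genes (15.5%) were called higher, against 4.16% of the others, and from 20 to 100 CPM 16 of 81 (19.8%) against 4.14%. Their median change in these bands was 0.53 and 0.38, beside 0.10 and -0.03. Zfp296, described above, was among the 2 called lower, and its adjusted p of 0.00043 in the edgeR test was smaller than those that follow. The members called higher with the smallest p were Zfp367, with 30.9 and 33.6 CPM in the controls and 86.5 and 78.6 CPM at 3 h (log2 fold change 1.36, SE 0.13, adjusted p = 0.00142), Zfp507, with 4.74 and 3.79 CPM in the controls and 16.5 and 15.8 CPM at 3 h (log2 fold change 1.90, SE 0.21, adjusted p = 0.00259), and Zfp869, with 11.4 and 11.1 CPM in the controls and 28.6 and 27.7 CPM at 3 h (log2 fold change 1.32, SE 0.16, adjusted p = 0.00383). The controls and treated libraries of these 3 did not overlap. Each of these calls held with any 1 of the 4 libraries left out. Over the alternatives, 4 to 99 Zfp genes were called higher and 1 to 5 lower, and recently duplicated members can share reads.

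Chaperone genes were called lower more often than higher. In the list of endoplasmic reticulum (ER) chaperones and unfolded protein response genes, 1 of 28 tested members was called higher and 6 lower, with a median log2 fold change of -0.33. Hspa5, which encodes the ER chaperone BiP, had 234 and 233 CPM in the controls and 146 and 134 CPM at 3 h (log2 fold change -0.74, SE 0.11, adjusted p = 0.00937). The disulfide isomerase Pdia6 had 201 and 213 CPM in the controls and 128 and 125 CPM at 3 h (log2 fold change -0.71, SE 0.11, adjusted p = 0.0113). Manf, a secreted ER stress factor, had 255 and 273 CPM in the controls and 156 and 176 CPM at 3 h (log2 fold change -0.67, SE 0.11, adjusted p = 0.0169). Hsp90b1, Calr and Edem1 were the other lower calls, and the exception was Hspa13, with 34.8 and 31.4 CPM in the controls and 54.8 and 50.4 CPM at 3 h (log2 fold change 0.66, SE 0.14, adjusted p = 0.0334). Of 32 cytosolic and mitochondrial heat shock genes 4 were lower and 0 higher. They were Hsph1, with 128 and 149.8 CPM in the controls and 78.2 and 83.9 CPM at 3 h (log2 fold change -0.78, SE 0.13, adjusted p = 0.0145), Dnaja1, with 385 and 384 CPM in the controls and 274 and 283 CPM at 3 h (log2 fold change -0.47, SE 0.10, adjusted p = 0.0369), Hspe1, with 1593 and 1709 CPM in the controls and 1179 and 1224 CPM at 3 h (log2 fold change -0.46, SE 0.10, adjusted p = 0.0411), and Cct8. Scaled to library size alone, 3 ER genes and 1 heat shock gene were called lower. Without either 3 h library the call was lost for Hspa5, Pdia6, Manf, Hspa13, Hsph1, Dnaja1 and Hspe1 (adjusted p from 0.0667 to 0.197). Leaving out control library 2 ended the call of Hspa13, Dnaja1 and Hspe1 (adjusted p from 0.0723 to 0.0926). Settings that also ended a call included scaling to library size alone (for Dnaja1 and Hspe1) and fitting the 4 libraries by themselves (for Hspa13, Dnaja1 and Hspe1).

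Of 19 tested genes of the oxidative stress regulator NRF2, a protein with a short life, 4 were lower and 0 higher. Gclm, a subunit of the glutathione-making ligase, had 266 and 299.6 CPM in the controls and 192 and 159.5 CPM at 3 h (log2 fold change -0.68, SE 0.13, adjusted p = 0.0245). The quinone reductase Nqo1 had 80.1 and 72.5 CPM in the controls and 47.3 and 48.1 CPM at 3 h (log2 fold change -0.68, SE 0.13, adjusted p = 0.0248), thioredoxin (Txn1) had 1333 and 1258 CPM in the controls and 884 and 942 CPM at 3 h (log2 fold change -0.51, SE 0.10, adjusted p = 0.0288) and Prdx1 was the other. Of 27 sterol genes 2 were lower and 0 higher, with a median of -0.45. Among them Idi1, an isomerase of sterol synthesis, had 75.5 and 85.3 CPM in the controls and 52.7 and 56.3 CPM at 3 h (log2 fold change -0.56, SE 0.13, adjusted p = 0.049). In all 4 genes given with values the treated libraries were below both controls. The call of Gclm, Nqo1, Txn1 and Idi1 was lost without either 3 h library (adjusted p from 0.072 to 0.221). For Gclm and Idi1 the call was lost when control library 2 was left out (adjusted p from 0.0617 to 0.126). Calls were also lost with scaling to library size alone (for Nqo1, Txn1 and Idi1), fitting the 4 libraries by themselves (for Gclm, Nqo1, Txn1 and Idi1), limma-voom (for Idi1) and upper quartile scaling (for Idi1).

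Mitochondrially encoded genes had the largest share of lower calls of any list, 10 of 13, with a median of -0.59 and none higher. They encode subunits of the respiratory chain and the ATP synthase. mtNd1 had 21742 and 25870.5 CPM in the controls and 11383 and 11526 CPM at 3 h (log2 fold change -1.06, SE 0.11, adjusted p = 0.00195), mtNd2 had 19482 and 16186 CPM in the controls and 10008 and 8075 CPM at 3 h (log2 fold change -0.98, SE 0.12, adjusted p = 0.00492) and mtNd4l had 1589 and 1769.8 CPM in the controls and 858 and 935 CPM at 3 h (log2 fold change -0.91, SE 0.11, adjusted p = 0.00383). On library size alone 7 members were still called lower, and leaving the mitochondrial chromosome out of the fit gave 626 calls among nuclear genes in place of 625 in all. Dropping 3 h library 1 took the call from mtNd4l (adjusted p = 0.0572). The nuclear genes of the same organelle gave fewer calls, with 2 of 81 respiratory chain genes lower, Cycs (1128 and 1242 CPM in the controls and 857 and 879.8 CPM at 3 h; log2 fold change -0.45, SE 0.10, adjusted p = 0.04) and Ndufa12 (1591 and 1584 CPM in the controls and 1069.9 and 1262 CPM at 3 h; log2 fold change -0.45, SE 0.10, adjusted p = 0.049), and none higher. Of 76 mitochondrial ribosomal protein genes 1, Mrpl9, was called, and it was higher, although 61 of the 76 had a negative change. In the respiratory chain list 74 of 81 were negative. The list medians were -0.23 for the ribosomal proteins and -0.23 for the respiratory chain, and -0.0048 and -0.0049 with library size alone. Without either 3 h library or control library 2 the call was lost for Cycs and Ndufa12 (adjusted p from 0.083 to 0.23). Leaving out control library 1 ended the call of Ndufa12 (adjusted p = 0.0572). A call ended too with scaling to library size alone (for Cycs and Ndufa12), fitting the 4 libraries by themselves (for Cycs and Ndufa12) and upper quartile scaling (for Ndufa12).

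Some genes of the cytosolic ribosome were called lower, by small amounts. 8 of 83 ribosomal protein genes were called lower and 0 higher, with a median of -0.32, close to the median of all genes at 1000 CPM or more. Rpl36al had 263 and 274 CPM in the controls and 164 and 165 CPM at 3 h (log2 fold change -0.71, SE 0.10, adjusted p = 0.00968). Rpl5 had 3317 and 3601 CPM in the controls and 2604 and 2603 CPM at 3 h (log2 fold change -0.41, SE 0.09, adjusted p = 0.0363). Rpl15 had 3204 and 3169.8 CPM in the controls and 2375 and 2398 CPM at 3 h (log2 fold change -0.42, SE 0.09, adjusted p = 0.0371). Of 67 ribosome biogenesis genes 3 were lower and 1 higher, among them Npm1, an abundant nucleolar chaperone, with 5919 and 6513 CPM in the controls and 4649 and 4750.4 CPM at 3 h (log2 fold change -0.40, SE 0.09, adjusted p = 0.0379). The proteasome had 2 of 38 genes lower, Psma5 (371 and 408 CPM in the controls and 263 and 263 CPM at 3 h; log2 fold change -0.57, SE 0.10, adjusted p = 0.0215) and Psma3 (516 and 501 CPM in the controls and 390.4 and 348 CPM at 3 h; log2 fold change -0.46, SE 0.11, adjusted p = 0.0468), and none higher. On library size alone 1 ribosomal protein gene and 0 proteasome genes were called lower, and the median of the biogenesis list changed sign, from -0.11 to 0.12. Processed pseudogenes of ribosomal proteins can share reads with their parents. The call of Rpl36al, Rpl5, Rpl15, Npm1, Psma5 and Psma3 was lost without either 3 h library (adjusted p from 0.0895 to 0.254). For Psma3 the call was lost when control library 1 was left out (adjusted p = 0.0668). Dropping control library 2 took the call from Rpl5, Rpl15, Npm1, Psma5 and Psma3 (adjusted p from 0.0567 to 0.0816). Calls lost under other settings included those with scaling to library size alone (for Rpl5, Rpl15, Npm1, Psma5 and Psma3) and fitting the 4 libraries by themselves (for Rpl5, Rpl15, Npm1, Psma5 and Psma3).

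Cell cycle genes were called in both directions, 13.2% of the tested list against 4.9% of all tested genes. Besides cyclins L, the replication licensing factor Cdt1 was higher, with 222 and 211 CPM in the controls and 309.6 and 316 CPM at 3 h (log2 fold change 0.53, SE 0.10, adjusted p = 0.0235). Cyclin A2 (Ccna2) was lower, with 246 and 263 CPM in the controls and 186 and 175 CPM at 3 h (log2 fold change -0.49, SE 0.11, adjusted p = 0.0388), and its kinase Cdk1 lay at the threshold, with 736 and 742 CPM in the controls and 489 and 579 CPM at 3 h (log2 fold change -0.47, SE 0.11, adjusted p = 0.0496). In all, 3 of 38 tested genes were higher and 2 lower. Without either 3 h library or control library 2 the call was lost for Cdt1, Ccna2 and Cdk1 (adjusted p from 0.0612 to 0.237). Leaving out control library 1 ended the call of Cdk1 (adjusted p = 0.058). Settings that also ended a call included scaling to library size alone (for Ccna2 and Cdk1), fitting the 4 libraries by themselves (for Cdt1, Ccna2 and Cdk1) and upper quartile scaling (for Cdk1). No member was called by edgeR in the lists of BCL2 relatives, polyamine synthesis, DNA methylation, glycolysis or the mTORC1 pathway, in which 5, 3, 1, 6 and 7 genes had an unadjusted p below 0.05, DESeq2 called 1, 2, 1, 2 and 4, and limma-voom 0, 0, 0, 0 and 0. Of the BCL2 relatives, Mcl1, a labile survival protein, had the highest level, with 606 and 675 CPM in the controls and 843 and 833 CPM at 3 h (log2 fold change 0.39, SE 0.10, adjusted p = 0.061). Of the polyamine genes it was Odc1, the first enzyme of their synthesis, with 503 and 453 CPM in the controls and 364 and 368 CPM at 3 h (log2 fold change -0.39, SE 0.10, adjusted p = 0.0647). The glycolytic gene Gapdh had 463 and 470.3 CPM in the controls and 364 and 349.8 CPM at 3 h (log2 fold change -0.39, SE 0.10, adjusted p = 0.0563). Actb, the cytoskeletal actin gene, had 2166 and 2152 CPM in the controls and 1835 and 2162 CPM at 3 h (log2 fold change -0.11, SE 0.13, adjusted p = 0.633).

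Among the largest changes outside these lists, Lpar6, a lysophosphatidic acid receptor, had 13.04 and 9.65 CPM in the controls and 69.8 and 69.9 CPM at 3 h (log2 fold change 2.60, SE 0.18, adjusted p = 0.000187). Rasl11b, a small GTPase gene, had 5.71 and 2.81 CPM in the controls and 21.8 and 25.1 CPM at 3 h (log2 fold change 2.40, SE 0.27, adjusted p = 0.00292), and its relative Rasl11a went the other way, with 48.02 and 35.6 CPM in the controls and 17.9 and 19.2 CPM at 3 h (log2 fold change -1.17, SE 0.20, adjusted p = 0.0192). The transcriptional corepressor Runx1t1 had 3.48 and 7.21 CPM in the controls and 20.2 and 26.9 CPM at 3 h (log2 fold change 2.20, SE 0.37, adjusted p = 0.0175). The deubiquitinase Yod1 had 14.5 and 6.35 CPM in the controls and 54.3 and 44.4 CPM at 3 h (log2 fold change 2.19, SE 0.31, adjusted p = 0.00875). The dioxygenase gene Alkbh1 had 27.8 and 31.6 CPM in the controls and 115 and 150.4 CPM at 3 h (log2 fold change 2.16, SE 0.16, adjusted p = 0.000296). In each of these 6 the groups were apart.

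Trim25, a ubiquitin ligase of the interferon response, had 207 and 247 CPM in the controls and 41.2 and 34.8 CPM at 3 h (log2 fold change -2.58, SE 0.15, adjusted p = 8.85e-05), the lowest value relative to control among 35 tested Trim genes, of which 2 were higher, among them Trim13 (51.8 and 51.7 CPM in the controls and 93.8 and 89.6 CPM at 3 h; log2 fold change 0.83, SE 0.13, adjusted p = 0.0126). Other falls were seen in Rnf145, an ER ubiquitin ligase (28.3 and 30.3 CPM in the controls and 12.4 and 13.4 CPM at 3 h; log2 fold change -1.18, SE 0.17, adjusted p = 0.00937), in Ankrd33b (31.2 and 29.1 CPM in the controls and 14.1 and 13.7 CPM at 3 h; log2 fold change -1.12, SE 0.16, adjusted p = 0.00937) and in Alas1, the rate-limiting enzyme of haem synthesis (24.01 and 21.5 CPM in the controls and 8.85 and 12.2 CPM at 3 h; log2 fold change -1.11, SE 0.21, adjusted p = 0.0265). Steap1, a metalloreductase family gene, had 131 and 136 CPM in the controls and 64.9 and 65.4 CPM at 3 h (log2 fold change -1.04, SE 0.12, adjusted p = 0.00286). Bend4 had 34.8 and 47.3 CPM in the controls and 17.9 and 23.3 CPM at 3 h (log2 fold change -0.98, SE 0.20, adjusted p = 0.0334). Kpna2, an importin that carries cargo into the nucleus, had 324 and 359 CPM in the controls and 168 and 179 CPM at 3 h (log2 fold change -0.97, SE 0.11, adjusted p = 0.00328). Treated libraries of these genes were below both controls, except for Trim13, where they were above. With the 6 genes before them, these calls depended on single libraries as follows. The call of Runx1t1, Yod1, Trim13, Rnf145, Rasl11a, Ankrd33b, Alas1, Bend4 and Kpna2 was lost without 3 h library 1 (adjusted p from 0.0555 to 0.181). For Runx1t1, Trim13, Rnf145, Rasl11a, Ankrd33b, Alas1 and Bend4 the call was lost when 3 h library 2 was left out (adjusted p from 0.0686 to 0.116). Dropping control library 2 took the call from Bend4 (adjusted p = 0.0823). Calls were also lost with scaling to library size alone (for Bend4), fitting the 4 libraries by themselves (for Alas1 and Bend4) and limma-voom (for Runx1t1).

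The same fit gave a direct test of 6 h against 3 h, in which 209 genes (1.64%) were called, 58 (0.455%) higher and 151 (1.18%) lower. Of the 459 genes higher at 3 h, 27 were higher still at 6 h, 15 were lower than at 3 h and 417 did not pass, which does not show that they stayed level. Of the 166 lower at 3 h, 18 were lower still and 1 was higher. The comparisons share the 3 h libraries, so a 3 h value that is high by chance lowers the second change. Several immediate-early and feedback genes were in the set that came down. Egr1 had 3.89 and 2.95 CPM at 6 h (6 h against 3 h: log2 -3.71, SE 0.24, adjusted p = 0.00053). Fos had 4.42 and 3.18 CPM at 6 h (6 h against 3 h: log2 -1.93, SE 0.29, adjusted p = 0.0204). Socs3 had 54.3 and 57.4 CPM at 6 h (6 h against 3 h: log2 -2.12, SE 0.11, adjusted p = 0.000193) and was then below both controls. Dusp6 had 75.97 and 74.3 CPM at 6 h (6 h against 3 h: log2 -0.99, SE 0.13, adjusted p = 0.0106). Klf10 did not follow them, with 627 and 631 CPM at 6 h (6 h against 3 h: log2 0.88, SE 0.10, adjusted p = 0.00608). Id3, Icam1 and Txnip did not pass the test between the times, at 195 and 174 CPM, 199 and 189 CPM and 1274 and 1222 CPM at 6 h.

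Histone and snoRNA host genes were among those that went on rising. Hist1h2bc had 159 and 177 CPM at 6 h (6 h against 3 h: log2 1.35, SE 0.14, adjusted p = 0.00497). Hist3h2a had 55.7 and 58.6 CPM at 6 h (6 h against 3 h: log2 1.10, SE 0.17, adjusted p = 0.0209). Snhg1 had 1057 and 1101 CPM at 6 h (6 h against 3 h: log2 0.52, SE 0.10, adjusted p = 0.0364). Gadd45g had 32.2 and 49.9 CPM at 6 h (6 h against 3 h: log2 1.89, SE 0.23, adjusted p = 0.00835). Of the pluripotency factors, Sox2 came back to the range of the controls, with 2338 and 2377 CPM at 6 h (6 h against 3 h: log2 -0.73, SE 0.09, adjusted p = 0.0106). Klf4 had 216 and 245 CPM at 6 h (6 h against 3 h: log2 -0.66, SE 0.11, adjusted p = 0.0294). Those that had fallen by 3 h fell further in part: Zfp296 had 2.08 and 2.03 CPM at 6 h (6 h against 3 h: log2 -1.88, SE 0.20, adjusted p = 0.00497). Gbx2 had 48.97 and 54.9 CPM at 6 h (6 h against 3 h: log2 -1.62, SE 0.12, adjusted p = 0.000988), while Tfcp2l1, with 55.1 and 61.4 CPM at 6 h, did not pass the test between the times. Myc, which was not called at 3 h, was lower at 6 h than at 3 h, with 48.7 and 32.9 CPM at 6 h (6 h against 3 h: log2 -1.33, SE 0.21, adjusted p = 0.0212).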

How the data were processed

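RNA of 6 samples was sequenced, and the values used are the raw counts per gene that the authors deposited, 1 table per sample; per the submitters' processing notes the build was mm10, and the aligner, counter and strand setting are not given in the sources used here. From 17485 rows, 1 with no chromosome, a reporter with 3 counts in all, was left out. With edgeR 4.0.16 in R 4.3.3, genes were filtered by filterByExpr (minimum count 10, minimum total 15), scaled by TMM and fitted with 1 mean per group over all 6 libraries (glmQLFit, glmQLFTest). Contrasts were 3 h against control and 6 h against 3 h, adjusted by Benjamini-Hochberg over 12755 genes, called at 0.05, and the SE is the log2 fold change over the root of F. limma 3.58.1 and DESeq2 1.42.0 were alternatives, with other scalings, filters, a replicate block and single libraries left out.

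The members and gene lists were chosen with earlier results of these data known, and lists are described by counts and medians with no set test. Named genes are the 15 largest called changes in each direction (mean of at least 20 CPM in the higher group, libraries apart, descriptive symbols), up to 3 called members of each list per direction by p, or the member with the highest level where none was called, 8 fixed genes (Pou5f1, Sox2, Nanog, Myc, Trp53, Atf4, Gapdh, Actb) and the leading cell type markers; the text gives values for a part of these, and most other called members are given by name alone. A few items are not reported here. Transcript features are from GENCODE M21 and promoters from RefSeq. The fit was tested on simulated counts (5 runs, 200 changed genes each; 7.24% of calls were false).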

Additional observations from a re-analysis of the deposited data

Results flagged for a closer look

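25 of the genes named in the text differed between the times of treatment, by the direct edgeR test of 6 h against 3 h (adjusted p from 0.000193 to 0.0432); the values that follow are log2 changes from 3 h to 6 h. Among the genes called higher at 3 h, those lower at 6 h than at 3 h were Egr1 -3.71, Socs3 -2.12, Fos -1.93, Dusp6 -0.99, Jun -0.86, Dusp1 -0.83, Sox2 -0.73 and Klf4 -0.66. Those higher at 3 h and higher again at 6 h were Runx1t1 2.03, Gadd45g 1.89, Hist1h2bc 1.35, Hist3h2a 1.10, Klf10 0.88, 1110038B12Rik 0.58 and Snhg1 0.52. Genes lower at 3 h and lower again at 6 h were Zfp296 -1.88, Gbx2 -1.62, Rasl11a -1.42, Kpna2 -1.09, Neat1 -0.97, Pdia6 -0.68, Rpl36al -0.63 and mtNd1 -0.61. Genes with no call at 3 h that were lower at 6 h than at 3 h were Tubb3 -1.47 and Myc -1.33. In each gene of these 4 sets the 2 libraries of one time did not overlap those of the other.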

How the results depend on the processing

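With library size alone in place of TMM, 1316 genes were higher and 57 lower at 3 h (1373 in all), and between 3 h and 6 h 121 rose and 93 fell. Without a filter on low counts the 3 h calls were 1220 and 592 (1812), with DESeq2 786 and 661 (1447), with limma-voom 282 and 163, and with the 4 libraries alone 168 and 50 (218). Between 3 h and 6 h DESeq2 gave 239 higher and 449 lower (688), and limma-voom 189 and 319 (508). RLE and upper quartile scaling, a stricter filter and leaving out mitochondrial genes kept each 3 h count within 1.5 times. Leaving out each library in turn gave 108 to 1033 calls at 3 h, 93 to 744 higher and 13 to 289 lower, with the fewest when either 3 h library was left out. Of the 103 called genes named, 61 lost the call without 3 h library 1, 56 without 3 h library 2, 7 and 27 without control library 1 and 2, 30 with the 4 libraries alone and 22 with library size alone. The cause was not tested.

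Some genes that were not called changed sign. With library size alone, Actb was 0.117, Myc 0.154, Trp53 0.123 and Pou5f1 0.226 (log2). Pou5f1 was 0.00213 without a filter, 0.00818 with the stricter filter and 0.00566 with the 4 libraries alone. With single libraries left out, Pou5f1 ran from -0.0772 to 0.0798, Myc from -0.228 to 0.089 and Nanog from -0.959 to 0.158.

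With the replicate number as a block, 339 genes were higher and 87 lower at 3 h (426), and between the times 26 rose and 100 fell (126); Pou5f1 was 0.00189. Deviations of same-numbered control and 3 h libraries correlated at r = 0.094 across genes, control and 6 h at -0.024, and 3 h and 6 h at 0.017. The labels give only a shared number. With 2 libraries per group, these correlations cannot show whether same-numbered samples shared a culture or a day. This block took the call from 18 of the named genes, Casc3, Ccna2, Ccng1, Cdk1, Ddit3, Dnaja1, Eif1ax, Etf1, Gadd45b, Gbx2, H2afz, Hspe1, Idi1, Magoh, Ndufa12, Psma3, Rpl15 and Rpl5.

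In simulated counts made from these libraries the test called 48.8% of genes changed 2-fold and 82.7% of those changed 4-fold.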
